A study of Mus musculus with 6 samples.

Results

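Fatty acid uptake and oxidation genes were described in RNA-seq libraries of gastrocnemius, a mostly fast muscle of the calf, from mice lacking Tmem182 and from wild-type mice. The group was a list of 35 genes, taken by symbol from the 19458 genes in the deposited tables, and every one of them had a row. It held 6 genes of uptake and activation, 4 of the carnitine shuttle, 17 of mitochondrial beta-oxidation and 8 that respond to lipid supply in muscle. Tmem182 encodes a membrane protein of striated muscle, and the comparison asks which transcripts differ in its absence.

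Long-chain fatty acids are freed from lipoproteins at the capillary wall, cross the membrane of the muscle fibre with the help of transporters, and are bound in the cytosol by a fatty acid binding protein. After coupling to coenzyme A they pass into mitochondria as carnitine esters and are shortened stepwise by beta-oxidation, which feeds electrons into the respiratory chain. Oxidative fibres, slow fibres above all, are known for a higher capacity for this pathway than the glycolytic fast fibres that make up most of the mouse gastrocnemius. PPAR and ERR nuclear receptors are known activators of many of its genes.

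There were 3 libraries of each genotype, all from C57BL/6 mice aged 9 weeks with no treatment named; the labels give neither the sex of the animals nor how the allele was made. Source labels of knockout libraries 2 and 3 carry the numbers of other Tmem genes, while their genotype field names tmem182-/-. The targeted gene was at 6.23, 4.30 and 2.17 FPKM (fragments scaled to transcript length and library size) in knockout libraries 1, 2 and 3 and at 147.48, 121.39 and 120.97 FPKM in the wild-type libraries, so it was low in all 3 knockout libraries (a log2 fold change of -5.02, SE 0.30, adjusted p = 0.00391 by the quasi-likelihood F test of edgeR). The Tmem182 log2 fold change missed the threshold when knockout library 2 or wild-type library 3 was left out, at adjusted p-values of 0.0716 and 0.0529 in edgeR. Nothing in the labels says that the libraries are of separate mice, so each p-value speaks for the variation among these samples alone, and that variation may be technical. Extraction is described for cultured myoblasts or myotubes, but the tissue label is skeletal muscle: Myh4, the fastest myosin heavy chain, was at 6876.36 FPKM or more in every library, and the cell division genes Mki67 and Ccnb1 were at 0.07 FPKM or less. Depth was 16212341 to 18672630 expected counts per library. Knockout library 1 stood apart, with a TMM scaling factor of 1.19 against 0.933 to 1.04 in the other 5 libraries; FPKM values are printed as deposited, without this factor, while fold changes include it.

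After a filter on low counts 34 of the 35 genes were tested, and all 34 had a higher fitted level in the knockout, with log2 fold changes from 0.02 (Acad9) to 2.37 (Angptl4) and a median of 0.25. Over all 12774 genes tested the median was 0.0046 and 51.1% were higher. None of the 34 was called by edgeR at an adjusted p of 0.05, as 0.00783% of all genes tested were, namely Tmem182 alone. The adjusted p of the members lay between 0.994 and 0.996. An unadjusted p under 0.05 was reached by 2 members, Acot2 and Angptl4, or 5.88% of them, against 2.07% of all genes in the upward direction. DESeq2 and limma-voom with library quality weights also called 0 members, with 3 (Acot2, Angptl4 and Ucp3) and 0 of them at an unadjusted p under 0.05. In the upward direction 224 and 512 of all 12774 genes were under it in these fits. No member had every knockout library above every wild-type library in scaled counts, while 4.67% of all genes tested did. The reverse, every knockout library below every wild-type library, also held for 0 members and for 4.51% of all genes. The members were chosen as a pathway, with earlier results of these data known. They also share the same 6 libraries, so their common direction is not a set of independent observations.

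**Figure D1:**
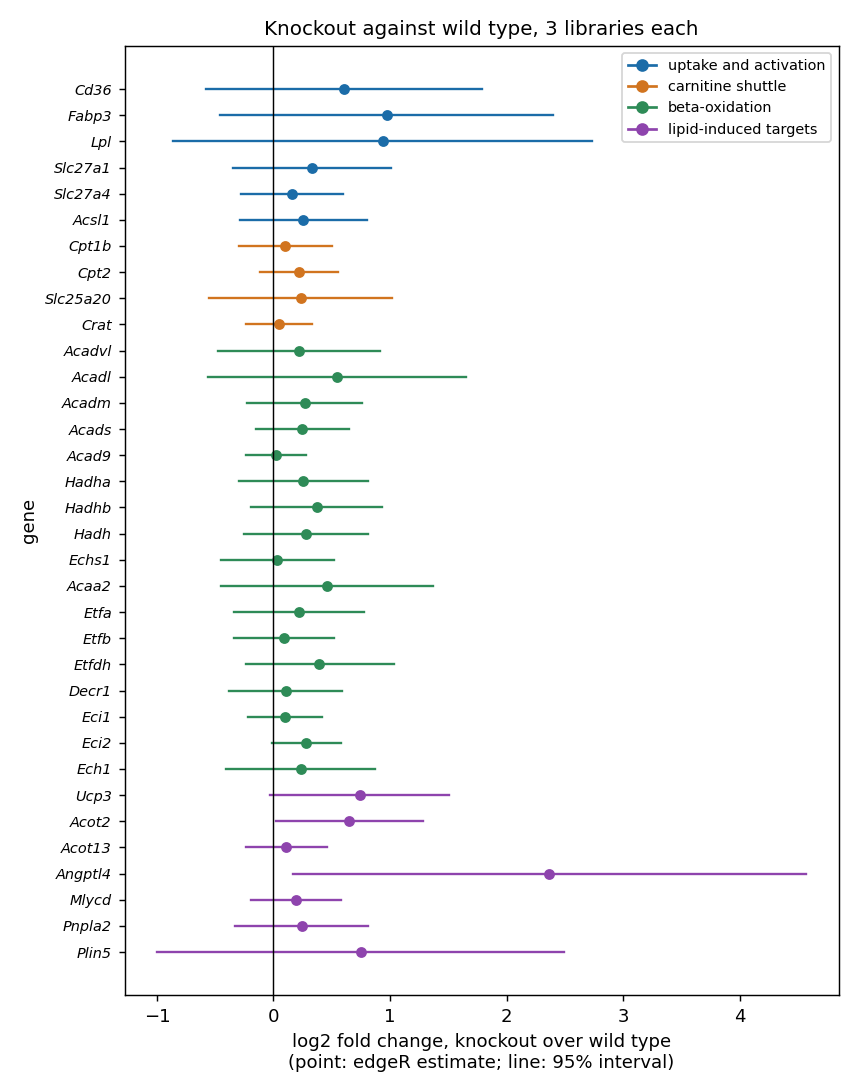
Log2 fold changes (knockout over wild type, edgeR) of the 34 tested fatty acid genes, ordered by role; points are estimates and lines are 95% intervals. All points lie above 0, from 0.02 for Acad9 to 2.37 for Angptl4, and only the intervals of Acot2 and Angptl4 exclude 0 before adjustment.

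Averaged over the members, the libraries of one genotype differed among themselves by more than the genotypes did. In scaled counts 31 of the 34 genes were highest in knockout library 1, where 29.9% of all genes tested were highest. Their lowest library was wild-type library 2 for 31 genes and knockout library 3 for the other 3; among all genes these libraries were lowest for 22.7% and 15.6%. The mean log2 CPM (counts scaled to library size) of the members was 6.81, 6.28 and 5.86 in knockout libraries 1, 2 and 3 and 6.25, 5.45 and 6.18 in the wild-type libraries, with a pooled SD within genotypes of 0.46. Knockout library 2 and wild-type libraries 1 and 3 thus lay close together, with knockout library 1 above them and knockout library 3 and wild-type library 2 below. Without knockout library 1, 22 of 34 genes were higher in the knockout and the median log2 fold change was 0.03. Without wild-type library 2, 23 of 34 were higher and the median was 0.12. Leaving out the highest knockout or the lowest wild-type library was bound to lower the fold changes of most members. Leaving out knockout library 3, the lowest knockout library on the mean of the members, was likewise bound to raise the fold changes of most members. Without knockout library 3, 34 of 34 were higher and 0 were called. In that edgeR fit 7 of 34 (20.6%) had an unadjusted p under 0.05, as did 412 of all 12996 genes in the upward direction.

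**Figure D2:**
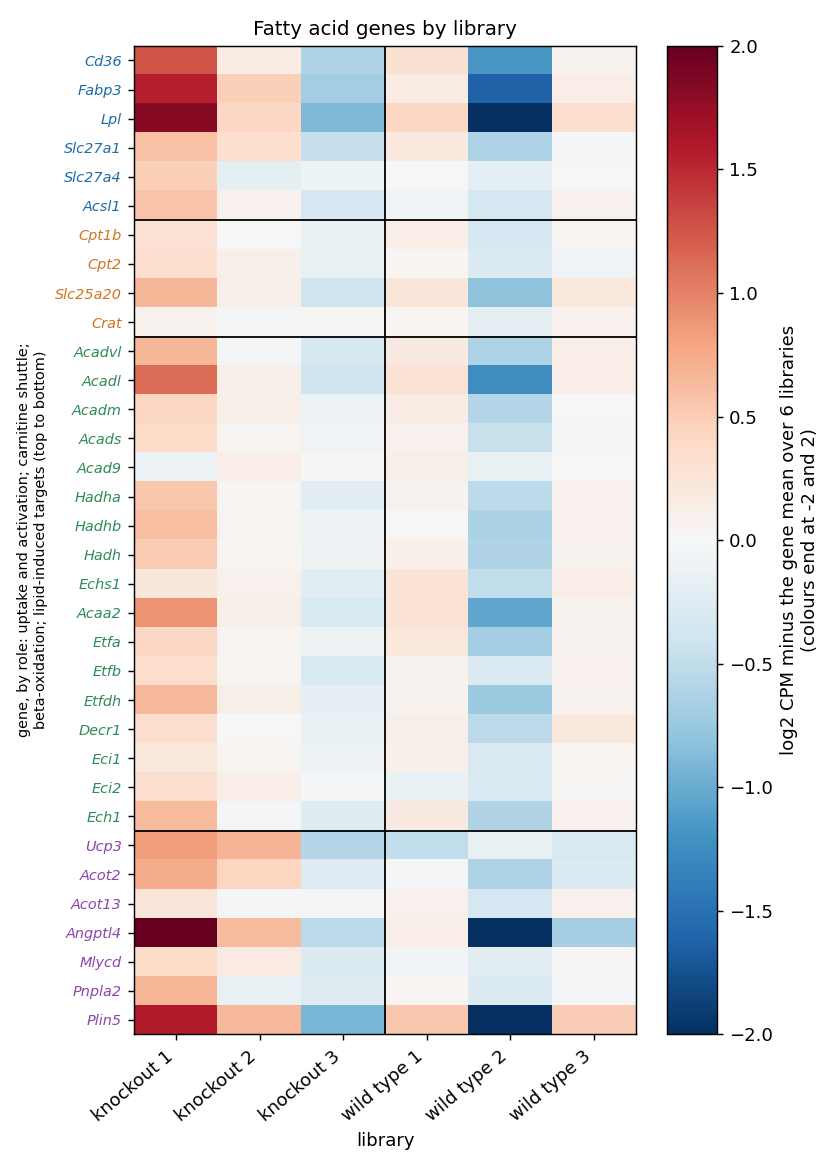
Level of each tested fatty acid gene in each of the 6 libraries, as log2 CPM minus the gene's own mean (red above, blue below), with genes grouped by role and a line between the genotypes. The column of knockout library 1 is red for nearly every gene, and those of wild-type library 2 and, more weakly, knockout library 3 are blue.

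Uptake genes had the widest range between libraries among the steps that lead to oxidation: the highest library was 1.98 to 18.2 times the lowest across the 6 genes, with a median of 4.74. In the carnitine shuttle this range was 1.48 to 3.44, and in beta-oxidation 1.31 to 6.34. All 6 uptake genes had a higher mean in the knockout and 0 were called (median log2 fold change 0.47); without knockout library 1, 2 of 6 were higher with a median of -0.01, and without wild-type library 2 the median was 0.21.

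Fabp3, the fatty acid binding protein of heart and muscle (plus strand of chromosome 4, GRCm38, 130308595 to 130315463), had the highest FPKM of all members in knockout libraries 1 and 2 and wild-type libraries 1 and 3. It was at 813.61, 308.98 and 135.13 FPKM in knockout libraries 1, 2 and 3 and at 267.57, 72.93 and 237.95 FPKM in wild-type libraries 1, 2 and 3. The genotypes overlapped: knockout library 3 lay below 2 of the 3 wild-type libraries. Its log2 fold change came to 0.97 (SE 0.61, with a 95% interval of -0.46 to 2.4), and 0.25 without knockout library 1. Annotated genes on the other strand, Zcchc17 among them, overlap Fabp3, and the handling of strand during counting is unknown.

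Lpl, the lipase that frees fatty acids from circulating triglyceride (plus strand of chromosome 8, 68880491 to 68907448), was at 335.23, 102.35 and 40.38 FPKM in order of knockout library, with wild-type levels of 110.91, 18.45 and 93.36 FPKM. Its log2 fold change of 0.94 (SE 0.77, 95% interval -0.86 to 2.73) was -0.0074 without knockout library 1. Knockout library 1 was the only library above the wild-type range. Cd36, the main fatty acid translocase of the muscle membrane (minus strand of chromosome 5, 17781690 to 17888801), was at 82.54, 30.86 and 18.18 FPKM without Tmem182 and 37.28, 12.48 and 28.53 FPKM with it. Again a single knockout library exceeded the wild-type range, and the log2 fold change of 0.60 (SE 0.51) was -0.05 without it. The transport protein genes Slc27a1 and Slc27a4 came to 0.33 ± 0.29 and 0.16 ± 0.19 (log2 fold change ± SE). Acsl1, the acyl-CoA synthetase that activates fatty acids for oxidation, had a log2 fold change of 0.25 (SE 0.23), at 148.6 FPKM in knockout library 1 and 62.42 to 84.76 FPKM in the other 5.

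Lpl and Cd36 are also known in capillary endothelium and fat cells, and in bulk tissue more cells of a type cannot be told apart from more RNA per cell. Of 8 endothelial markers 7 had a higher and 1 a lower mean in the knockout, 0 were called, and their summed level was 76.0 to 170.9 FPKM in the knockout and 78.4 to 129.2 FPKM in wild type. Leaving out knockout library 1 left 1 of these 8 higher and moved the median log2 fold change from 0.13 to -0.15, and leaving out wild-type library 2 left 3 higher with a median of -0.06. Endothelial markers were highest on average in knockout library 1 and lowest in wild-type library 2 and knockout library 3 (mean deviations 0.43, -0.39 and -0.37 on the log2 scale), the same extremes as for the fatty acid genes. No endothelial marker was at 0 in any library. Of 7 tested adipocyte markers 7 had a higher mean in the knockout, 0 were called, and their list summed to 22.5 to 87.0 FPKM in the knockout and 18.8 to 22.6 FPKM in wild type. Adipoq, the adipocyte hormone adiponectin, was 12.8 times as high in knockout library 1 as in knockout library 2, where it was lowest at 0.78 FPKM. Adipocyte markers were thus above their mean in knockout library 3 (deviation 0.63) and below it in knockout library 2 (-0.79), unlike the fatty acid genes, their median log2 fold change of 1.24 was 0.59 without knockout library 1 (7 of 7 higher), and none of the 8 was at 0 in any library. Of 6 macrophage markers all 6 and of 6 fibroblast markers 5 had a higher mean in the knockout, with 0 called; the macrophage list summed to 10.51 to 33.27 FPKM in the knockout and 10.62 to 15.03 FPKM in wild type, and the fibroblast list to 171.9 to 343.0 and 136.2 to 321.5 FPKM. Without knockout library 1, 5 of 6 macrophage and 2 of 6 fibroblast markers were higher, and their medians of 0.53 and 0.30 became 0.10 and -0.04. The part of these cell types in the values was not tested.

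**Figure D3:**
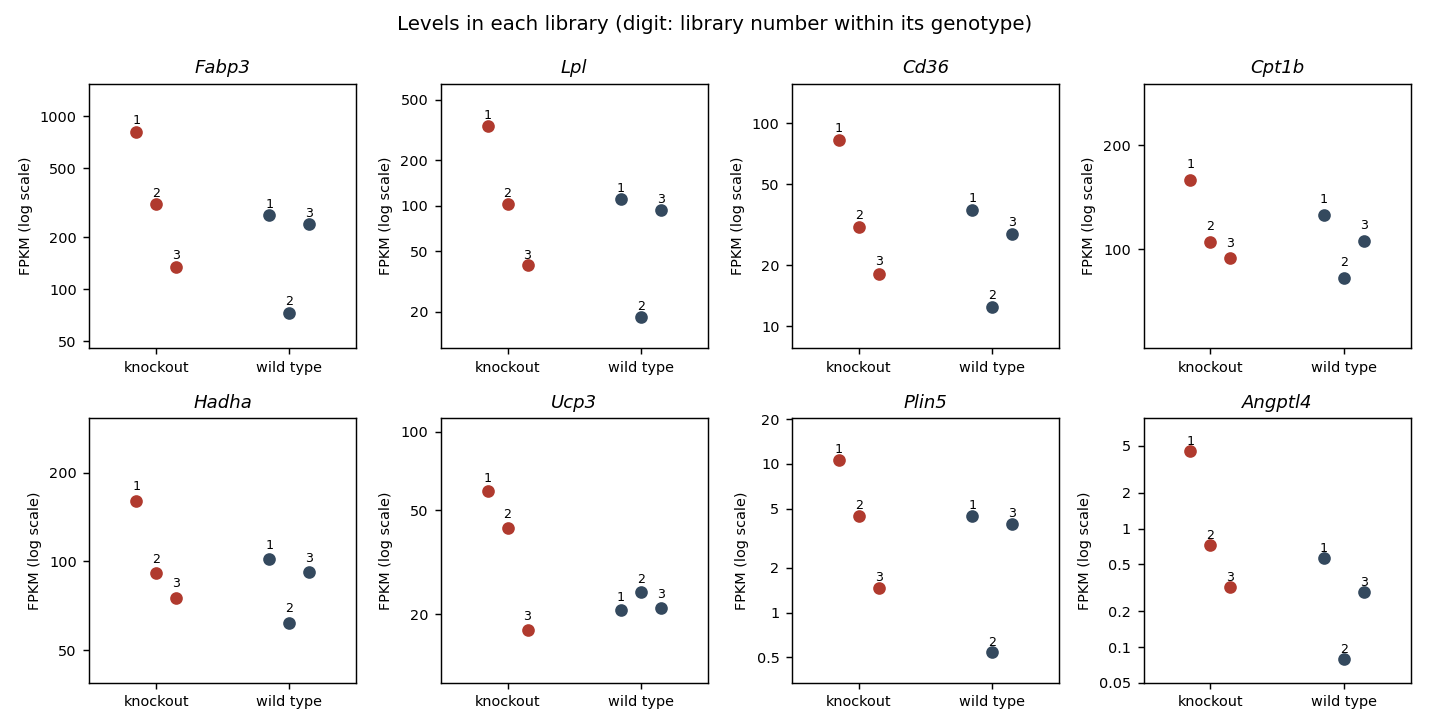
FPKM of 8 fatty acid genes in each library on a log axis, with each point marked by its library number within the genotype. In 7 of the 8 panels wild-type library 2 is lowest, whereas Ucp3 is high in knockout libraries 1 and 2 only.

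The carnitine shuttle was the least variable step. All 4 genes had a higher mean in the knockout and 0 were called (median log2 fold change 0.16). Without knockout library 1, 2 of the 4 were higher, and without wild-type library 2, 1 of the 4, with a median of -0.03. Cpt1b, the muscle form of carnitine palmitoyltransferase 1 that commits fatty acids to oxidation (minus strand of chromosome 15, 89416405 to 89425863), was at 159.01, 104.80 and 94.07 FPKM across the knockout libraries, while wild type gave 125.83, 82.56 and 105.78 FPKM. Its groups overlapped and its log2 fold change was 0.10 (SE 0.17, 95% interval -0.3 to 0.5), or -0.03 without either knockout library 1 or wild-type library 2. A second annotated protein-coding gene, Gm44502, overlaps it on the same strand, so its reads may be divided. Cpt2, the enzyme that restores acyl-CoA inside the mitochondrion (minus strand of chromosome 4, 107903981 to 107923610), was at 38.57, 26.44 and 21.89 FPKM in knockout and 27.40, 20.38 and 22.66 FPKM in wild-type libraries, with a log2 fold change of 0.22 (SE 0.14). Knockout library 3 lay inside the wild-type range. Slc25a20, the carnitine-acylcarnitine carrier of the inner membrane (plus strand of chromosome 9, 108662088 to 108684641), was at 42.06, 22.88 and 15.91 FPKM in knockout and 27.45, 12.23 and 24.05 FPKM in wild-type libraries. That gave a log2 fold change of 0.24 (SE 0.34), and of -0.08 without knockout library 1. Crat, carnitine acetyltransferase, was abundant and even across libraries at 164.64 to 243.08 FPKM (a log2 fold change of 0.05, SE 0.12).

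In beta-oxidation all 17 genes had a higher mean in the knockout and 0 were called, with log2 fold changes from 0.02 to 0.54 and a median of 0.25. Without knockout library 1, 12 of the 17 were higher with a median of 0.06, and without wild-type library 2, 10 of the 17 with a median of 0.08. The first step is catalysed by acyl-CoA dehydrogenases that differ in the chain length they accept. Acadvl (very long chains), Acadl (long), Acadm (medium) and Acads (short) came to 0.22 ± 0.30, 0.54 ± 0.47, 0.27 ± 0.21 and 0.25 ± 0.17 (log2 fold change ± SE). Acadl had the widest range of these, with 25.11 FPKM in wild-type library 2 and 159.26 FPKM in knockout library 1. Acad9, known chiefly as an assembly factor of respiratory complex I, was the steadiest member at 7.57 to 9.93 FPKM (a log2 fold change of 0.02, SE 0.11).

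Hadha and Hadhb encode the alpha and beta subunits of the mitochondrial trifunctional protein, which carries out the later steps for long chains. Hadha (minus strand of chromosome 5, 30118304 to 30155162) was at 160.85, 91.29 and 75.26 FPKM in order of knockout library, with wild-type levels of 101.81, 61.93 and 91.86 FPKM (a log2 fold change of 0.25, SE 0.24). Hadhb (plus strand of chromosome 5, 30155248 to 30184593) was at 163.22, 90.89 and 80.43 FPKM in knockout and 94.79, 56.45 and 89.90 FPKM in wild-type libraries (a log2 fold change of 0.37, SE 0.24). Both subunits were highest in knockout library 1 and lowest in wild-type library 2. The ratio of Hadhb to Hadha FPKM came to 1.01, 0.996 and 1.07 without Tmem182 and to 0.931, 0.912 and 0.979 with it. Every knockout ratio thus lay above every wild-type ratio, a difference that was not tested. Ratios were not among the planned results, and no share of gene pairs that separate in this way was computed. The other ratios computed, given under other observations, overlapped between the genotypes. The pair stayed near 1 to 1 while the highest library was 2.6 times the lowest for Hadha and 2.89 times for Hadhb. Their annotated starts lie head to head, 86 bases apart in GENCODE M21. Whether this arrangement bears on their ratio was not tested. The window around the Hadhb start is shown because it holds the gap between these head-to-head genes as GENCODE M21 annotates them. Capitals mark the 85 bases between the annotated genes (chr5:30155163-30155247, GRCm38), and the sequence is RefSeq's for chr5:30155003-30155302, plus strand.
Hadhb: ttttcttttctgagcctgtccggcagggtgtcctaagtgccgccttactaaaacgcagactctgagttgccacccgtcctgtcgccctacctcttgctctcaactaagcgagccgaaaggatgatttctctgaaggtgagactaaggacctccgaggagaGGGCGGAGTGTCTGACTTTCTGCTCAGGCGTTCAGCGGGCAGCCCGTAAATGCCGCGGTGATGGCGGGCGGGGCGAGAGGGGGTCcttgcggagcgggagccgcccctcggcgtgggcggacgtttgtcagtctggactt

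Among the enzymes of the middle steps, Hadh and Echs1, the short-chain hydroxyacyl-CoA dehydrogenase and enoyl-CoA hydratase, came to 0.28 ± 0.23 and 0.03 ± 0.21 (log2 fold change ± SE). Acaa2, the thiolase of the last step, had a log2 fold change of 0.46 (SE 0.39), with 95.9 FPKM in knockout library 1 and 20.14 FPKM in wild-type library 2. The electron transfer flavoprotein takes electrons from the dehydrogenases and passes them to ubiquinone through its oxidoreductase, Etfdh. Its subunit genes Etfa and Etfb came to 0.22 ± 0.24 and 0.09 ± 0.18 (log2 fold change ± SE). Etfdh (minus strand of chromosome 3, 79603788 to 79629500) was at 56.56, 31.37 and 25.38 FPKM without Tmem182 and 33.22, 17.47 and 29.58 FPKM with it (a log2 fold change of 0.39, SE 0.27). Knockout library 3 again lay between wild-type libraries.

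Unsaturated fatty acids need auxiliary enzymes, and among these Eci2, an enoyl-CoA isomerase (minus strand of chromosome 13, 34977748 to 35027096), had the smallest p of the beta-oxidation genes. It was at 34.05, 24.50 and 21.19 FPKM across the knockout libraries, while wild type gave 22.07, 18.20 and 22.03 FPKM. Of its knockout libraries 2 lay above the wild-type range and 1 inside it, and it had a log2 fold change of 0.28 (SE 0.13, with a 95% interval of -0.01 to 0.58, edgeR adjusted p = 0.994). An antisense gene, Gm16984, overlaps Eci2. Decr1, dienoyl-CoA reductase, Eci1, the other isomerase, and Ech1, dienoyl-CoA isomerase, came to 0.10 ± 0.21, 0.10 ± 0.14 and 0.23 ± 0.28 (log2 fold change ± SE).

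Lipid-induced targets held Angptl4, the member with the largest fold change. Of the 8 genes 7 were tested, all 7 had a higher mean in the knockout, and 0 were called (median log2 fold change 0.65); without knockout library 1, 6 were higher with a median of 0.04, and without wild-type library 2, 6 with a median of 0.26. The median was 0.12 with the slow fibre covariate, 0.16 in limma-voom with library quality weights and 0.23 at a mean of at least 5 FPKM. The last of these covers fewer genes, since Acot2, Angptl4 and Plin5 fall below that mean. Angptl4, a secreted inhibitor of lipoprotein lipase that fatty acids induce (minus strand of chromosome 17, 33773750 to 33781830), was at 4.48, 0.73 and 0.32 FPKM in order of knockout library, with wild-type levels of 0.57, 0.08 and 0.29 FPKM. These values rest on 138, 25 and 11 expected counts against 19, 3 and 10, and the knockout was above the wild-type range in libraries 1 and 2 only. Its log2 fold change came to 2.37 (SE 0.94, with a 95% interval of 0.17 to 4.57, edgeR adjusted p = 0.994), and 0.80 without knockout library 1.

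Ucp3, the uncoupling protein of skeletal muscle (plus strand of chromosome 7, 100472990 to 100486432), was at 59.23, 42.91 and 17.45 FPKM without Tmem182 and 20.69, 24.22 and 21.11 FPKM with it. It departed from the common order: the wild-type libraries lay close together, knockout libraries 1 and 2 were above all of them, and knockout library 3 was below. Its log2 fold change was 0.74 (SE 0.33, 95% interval -0.03 to 1.51, edgeR adjusted p = 0.994), and 0.49 to 1.07 when single libraries were left out. An antisense gene, Gm10603, overlaps Ucp3. Pdk4, the pyruvate dehydrogenase kinase that restrains glucose oxidation when fat is burned and no member of the list, was at 148.62, 96.35 and 12.16 FPKM across the knockout libraries, while wild type gave 25.57, 8.80 and 27.74 FPKM (a log2 fold change of 1.91, SE 0.76). Pdk4 too was above the wild-type range in knockout libraries 1 and 2 and not in library 3. So was the slow myosin gene Myh7, described below. With the slow fibre covariate the log2 fold changes of Ucp3 and Pdk4 were 0.44 and 0.90.

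Acot2, a mitochondrial acyl-CoA thioesterase (plus strand of chromosome 12, 83987861 to 83993873), was at 5.91, 3.84 and 2.37 FPKM in order of knockout library, with wild-type levels of 3.05, 1.87 and 2.31 FPKM. Knockout libraries 1 and 2 exceeded the wild-type range and library 3 did not, and it had a log2 fold change of 0.65 (SE 0.27, with a 95% interval of 0.02 to 1.28, edgeR adjusted p = 0.994). Acot1, its cytosolic relative 15617 bases away on the same strand, did not pass the count filter, with 1.5, 0.12 and 0.11 FPKM without Tmem182 and 0.24, 0.05 and 0.25 FPKM with it. It had 38 expected counts in knockout library 1 and 2 to 7 in each of the others. The transcripts of this pair share long identical stretches: 24.5% of the 50-base stretches of Acot2 occur unchanged in Acot1, so the division of their reads is uncertain.

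Plin5, which coats lipid droplets and tethers them to mitochondria, was at 10.65, 4.45 and 1.47 FPKM across the knockout libraries, while wild type gave 4.47, 0.54 and 3.97 FPKM; it was chosen for full values after they were seen. Its 19.7-fold range across libraries exceeded the difference between genotypes (a log2 fold change of 0.75, SE 0.75). Pnpla2, the lipase that opens triglyceride breakdown in droplets, and Mlycd, which removes the malonyl-CoA that blocks the carnitine shuttle, came to 0.24 ± 0.24 and 0.19 ± 0.17 (log2 fold change ± SE). Acot13, another thioesterase, had a log2 fold change of 0.11 (SE 0.15).

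Promoter windows of 300 bases, from 250 before to 50 after the RefSeq start on GRCm38.p6, were matched for 27 of the 35 genes in 31 windows. They were searched on both strands for the nuclear receptor half-site AGGTCA, for the ERR element TCAAGGTCA, which contains the half-site, and for AGGTCANAGGTCA, the direct repeat with 1 base between. The half-site was found in 7 of the 31 windows (22.6%), against 16.3% of all 32851 windows, and in 6 genes: Acadm, Acadvl, Cd36, Echs1, Plin5 and Ucp3. No member window held either longer motif, which 0.42% and 0.04% of all windows hold. Ucp3 was the one member with 2 half-sites in a single window, and its window is printed, with that of Cd36, to show them; capitals mark the half-site or its reverse complement. A match to these letters describes the sequence only. Ucp3 lies at chr7:100472741-100473040 on the plus strand, and Cd36 at chr5:17835847-17836146 on the minus strand. The Cd36 window is at a RefSeq start inside the GENCODE M21 span of the gene, whose outer start is at 17888801. Whether that inner start is used in these samples was not tested.
Ucp3: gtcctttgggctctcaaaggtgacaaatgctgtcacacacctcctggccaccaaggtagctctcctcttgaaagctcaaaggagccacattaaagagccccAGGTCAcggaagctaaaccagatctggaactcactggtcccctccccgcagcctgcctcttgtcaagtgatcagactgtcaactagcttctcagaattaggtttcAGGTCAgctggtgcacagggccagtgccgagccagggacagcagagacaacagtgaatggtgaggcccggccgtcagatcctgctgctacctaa
Cd36: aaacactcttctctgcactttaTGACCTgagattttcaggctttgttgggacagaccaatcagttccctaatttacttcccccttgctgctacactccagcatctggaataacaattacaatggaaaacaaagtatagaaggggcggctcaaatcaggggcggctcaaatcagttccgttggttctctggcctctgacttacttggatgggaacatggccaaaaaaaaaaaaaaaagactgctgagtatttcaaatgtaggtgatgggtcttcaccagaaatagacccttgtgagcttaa

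Slow fibre markers ranked the libraries in the same order as the mean of the fatty acid genes, but with knockout library 2 close to library 1. The 10 slow fibre markers, contractile and calcium-handling genes of oxidative type I fibres, had mean log2 CPM of 8.06, 7.7 and 3.47 in knockout libraries 1, 2 and 3 and 6.5, 3.46 and 6.34 in the wild-type libraries. All 10 had a higher mean in the knockout and 0 were called, with a median log2 fold change of 1.5 that was 0.97 without knockout library 1, and a summed level of 124.8 to 2892 FPKM in the knockout and 93.2 to 877.6 FPKM in wild type. Myh7, which encodes slow myosin, measured 277.22, 196.42 and 1.34 FPKM in knockout and 76.52, 5.71 and 71.59 FPKM in wild-type libraries. The libraries with the lowest slow fibre level, knockout 3 and wild type 2, were also those in which each of the 34 fatty acid genes had its lowest scaled count. All 8 endothelial markers and all 18 respiratory and citrate cycle genes also had their lowest scaled count in one of these libraries. The part of fibre type in the values was not tested, and the fit that follows cannot separate it from other differences between the libraries. When the slow fibre level was added to the edgeR model as a covariate, 32 of 34 members were higher in the knockout, 0 were called, and the median log2 fold change was 0.11. Acot2 was the member with an unadjusted p under 0.05 in that fit, which 232 of all 12774 genes reached in the upward direction.

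Respiratory and citrate cycle genes varied less between libraries. Of 18 such genes 14 had a higher and 4 a lower mean in the knockout, 0 were called, all 18 were lowest in wild-type library 2, 9 were higher when knockout library 1 was left out and 2 when wild-type library 2 was, the median log2 fold change was 0.04, and their mean deviation was 0.14 in knockout library 1 and -0.33 in wild-type library 2. Over these libraries the uptake genes ran from 1.04 to -1.0 and the beta-oxidation genes from 0.48 to -0.57. With the level of the respiration list as a covariate, a fit added after the data were seen, 33 of 34 members were higher, 0 were called, and the median was 0.16. Fast fibre markers had lower means in the knockout for 10 of 10 genes with 0 called, and the median of -0.27 was 0.04 without knockout library 1.

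**Figure D4:**
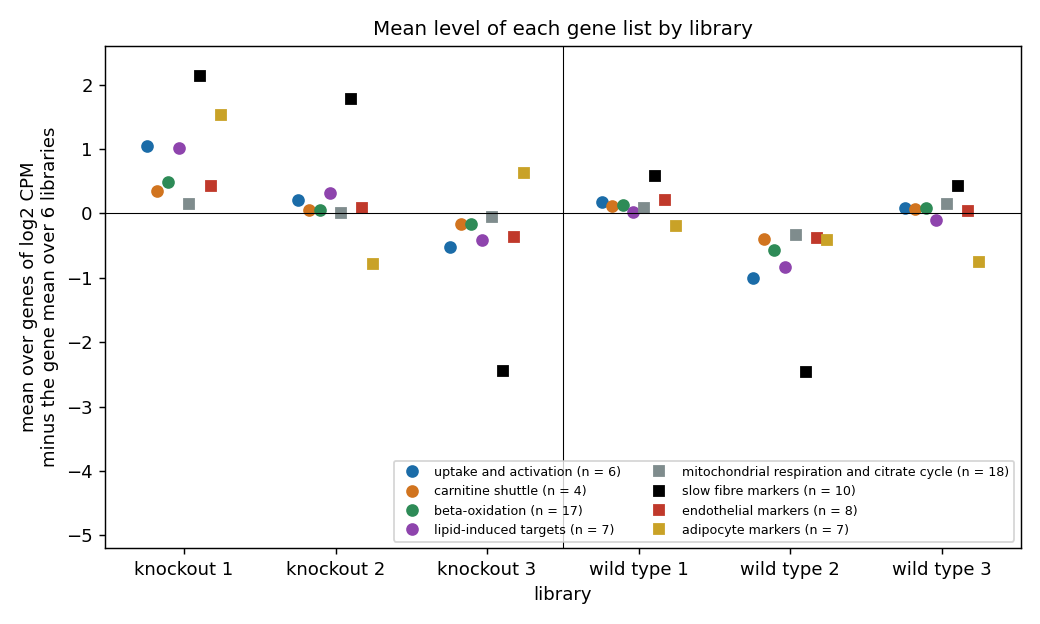
Mean deviation of each gene list in each library, in log2 CPM from the gene's mean over the 6 libraries; circles are the 4 roles of the fatty acid genes and squares are comparison lists. Slow fibre markers span 2.14 to -2.46, while the 4 roles are each highest in knockout library 1 and lowest in wild-type library 2 over a narrower range; adipocyte markers are lowest in knockout library 2.

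Other genes of fatty acid metabolism, 91 names in 7 lists, gave 88 tested genes, of which 62 had a higher and 26 a lower mean in the knockout and 0 were called (median log2 fold change 0.11). Without knockout library 1, 50 of the 88 were higher and the median was 0.02. Among 16 other oxidation enzymes 9 were higher and 7 lower, and Cpt1a, the liver form of carnitine palmitoyltransferase 1, was at 2.79, 2.13 and 1.47 FPKM in knockout and 1.56, 1.19 and 1.39 FPKM in wild-type libraries (a log2 fold change of 0.53, SE 0.19). Acat1 and Acad11 followed at 0.29 (SE 0.20) and 0.20 (SE 0.14). Among 14 peroxisomal genes 9 were higher and 5 lower, with Ehhadh, the peroxisomal bifunctional enzyme, at a log2 fold change of 0.48 (SE 0.17), Acot8 at -0.35 (SE 0.18) and Abcd3 at 0.22 (SE 0.14).

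Of 17 regulators 11 were higher and 6 lower with a median log2 fold change of 0.07; after Pdk4 the smallest p belonged to Nrip1, a corepressor, at -0.32 (SE 0.23) and Esrrg, an oestrogen-related receptor, at 0.83 (SE 0.60). Of 12 other uptake and activation genes 8 were higher and 4 lower, or 4 higher without knockout library 1, led by Vldlr, the VLDL receptor, at 0.44 (SE 0.20), Dbi, the acyl-CoA binding protein, at 0.21 (SE 0.10) and Acsl4 at 0.17 (SE 0.13). Of 14 lipid droplet and lipolysis genes 12 were higher and 2 lower, or 6 higher without knockout library 1, with hormone-sensitive lipase, Lipe, at 0.61 (SE 0.27), Agpat2 at 0.84 (SE 0.52) and Abhd5 at 0.17 (SE 0.12). Without that library Lipe was at 0.20 and Agpat2 at -0.04. Of 10 genes of fatty acid synthesis 9 were higher and 1 lower, with Scd1 at 1.22 (SE 0.65), Acaca at 0.43 (SE 0.25) and Fasn at 0.71 (SE 0.46). Without knockout library 1 these were 0.54, 0.04 and 0.15. Scd1, the stearoyl-CoA desaturase, was at 47.95, 4.18 and 23.20 FPKM without Tmem182 and 13.29, 8.19 and 7.94 FPKM with it, so knockout library 3 was high and library 2 low, in the order of the adipocyte markers.

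Of 34 members, 17 were higher in the knockout in every alternative run, the library left out included. They were Fabp3 and Slc27a1 of uptake, Cpt2 of the shuttle, Acadl, Acadm, Acads, Hadha, Hadhb, Hadh, Acaa2, Etfdh and Eci2 of beta-oxidation, and Ucp3, Acot2, Angptl4, Mlycd and Plin5 of the lipid-induced targets. The other 17 were lower in at least 1 alternative. The sign rested on values near 0 for several genes of both kinds: without knockout library 1, Acadl was at 0.0058, Hadha at 0.01, Plin5 and Mlycd at 0.04 and Acaa2 at 0.06, and without wild-type library 2 Etfa was at -0.0066. No member passed the threshold in any alternative, and the smallest adjusted p was 0.335, for Ucp3 without knockout library 3.

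**Figure D5:**
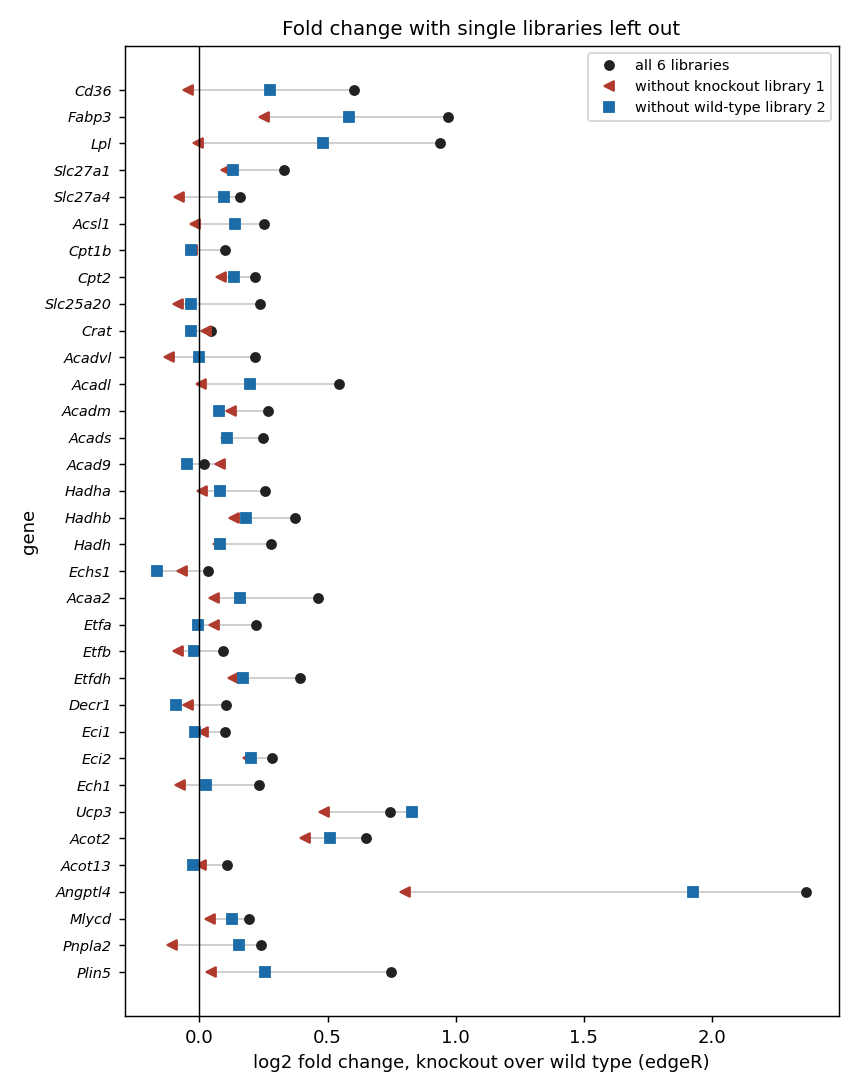
Log2 fold change of each tested fatty acid gene from edgeR with all 6 libraries (circles), without knockout library 1 (triangles) and without wild-type library 2 (squares). Most triangles and squares sit nearer to 0 than the circles, with medians of 0.03 and 0.12 against 0.25. The libraries left out were the highest and the lowest of the 6 on the mean of the members.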

How the data were processed

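RNA was measured in gastrocnemius of knockout and wild-type mice, 3 libraries each, grouped by the titles. The authors counted reads per gene and normalized them to FPKM, per the file headers and names; the deposited counts are estimated counts, or expected counts, computed by the authors, since 26.2% to 27.5% of values are not whole. The tools listed for GRCm38 are RSEM 1.2.12, HISAT2 2.0.4 and Bowtie2 2.2.5, per the submitters' processing notes; the annotation, read filters and use of strand are unknown. RSEM divides reads shared between similar genes by estimation. No 2 libraries agreed within counting noise (chi-square per degree of freedom at least 13.6).

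Counts were rounded, filtered with filterByExpr (minimum count 10), scaled by TMM and tested two-sided with the quasi-likelihood method of edgeR 4.0.16 in R 4.3.3, with p-values adjusted by Benjamini-Hochberg over 12774 genes at 0.05. SEs were derived from each fold change and its F statistic as their quotient, with F under the root; mean log2 CPM uses a prior count of 2. The common biological coefficient of variation was 18.8%. The alternatives left out each library, blocked on replicate number, dropped the filter, asked for a mean of 5 FPKM or more, or used DESeq2 (1.42.0) size factors or test, limma (3.58.1) on log2(FPKM + 1), limma-voom with library weights, slow fibre or (added after seeing the data) respiration covariates, or a threshold of 0.10. The fit was tested on simulated data in which every gene had the common coefficient of variation. That test does not speak for genes that vary more between libraries of a genotype.

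The members and lists were chosen with earlier results of these data known. All members were named; values per library went to the 3 with the smallest p in each role and to Cd36, Cpt1b, Hadha, Ucp3 and Angptl4, and each list of other fatty acid genes was described by up to 3 genes with the smallest p. Of the marker lists Myh7, Myh4 and Adipoq were named as checks, whatever their p. Plin2 stood on 2 rows and was read from the row whose Entrez number RefSeq gives for it. Positions and transcripts are GENCODE M21 (GRCm38) and promoter windows RefSeq (GRCm38.p6); 15 members overlap another annotated gene, 10 of them on the opposite strand. The planned comparison of protein sequences was not made; transcripts were compared instead. Results of 1 further list of genes are not reported here.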

Additional observations from a re-analysis of the deposited data

How the results depend on the processing

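No member was called under any alternative run, and at an adjusted p of 0.10 the count was 0 as well. Over all genes the count of 1 became 0 without knockout library 2 or wild-type library 3 (range 0 to 1 over the libraries left out) and 6 with the DESeq2 test, 3 higher and 3 lower. The median log2 fold change of the members ran from 0.03 to 0.4 over the libraries left out, and was 0.04 with library quality weights, 0.11 with the slow fibre covariate and 0.16 with the respiration covariate, chosen after seeing the data. By role, the median of the lipid-induced targets ran lowest to 0.04 over the libraries left out and was 0.12 with the slow fibre covariate and 0.16 with library quality weights; that of uptake ran lowest to -0.01. The replicate block left the median of the members at 0.25 with 34 of 34 higher and changed no call. Deviations of same-numbered libraries correlated at 0.52, 0.18 and -0.12, and those of differently numbered libraries at -0.47 to 0.43. With 3 libraries of each genotype these values cannot decide whether the replicate numbers pair the libraries. All 34 members kept their direction with DESeq2 size factors, the DESeq2 test, limma on FPKM, no filter and the block, as did the 30 tested at a mean of at least 5 FPKM.

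Log2 fold changes that turned over when a library was left out ranged as follows: Cd36 -0.05 to 0.94, Lpl -0.0074 to 1.37, Slc27a4 -0.08 to 0.28, Acsl1 -0.02 to 0.45, Cpt1b -0.03 to 0.2, Slc25a20 -0.08 to 0.46, Crat -0.03 to 0.1, Acadvl -0.12 to 0.41, Acad9 -0.05 to 0.08, Echs1 -0.17 to 0.18, Etfa -0.0066 to 0.39, Etfb -0.08 to 0.24, Decr1 -0.09 to 0.24, Eci1 -0.02 to 0.17, Ech1 -0.07 to 0.4, Acot13 -0.03 to 0.18, Pnpla2 -0.11 to 0.4, Myh4 -0.37 to 0.17, Agpat2 -0.04 to 1.18. With library quality weights the values that turned over were Slc27a4 -0.07, Cpt1b -0.04, Slc25a20 -0.08, Crat -0.03, Acadvl -0.12, Echs1 -0.08, Etfb -0.06, Decr1 -0.1, Ech1 -0.07, Acot13 -0.04, Pnpla2 -0.06, Myh7 -0.24, Scd1 -0.1, Fasn -0.04. With the slow fibre covariate these were Echs1 -0.08, Etfb -0.04, Myh7 -1.08, and with the respiration covariate Echs1 -0.04. Myh7 is itself among the 10 markers whose mean is the slow fibre covariate, so its value in that fit is not independent of the covariate. The cause of these reversals was not tested. Depth limits Angptl4 and Acot1 most, at 38 counts or fewer in each library except knockout library 1 for Angptl4.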

Other observations

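Some members of the pathway did not keep a fixed proportion to each other. The ratio of Acadl to Acadm FPKM came to 1.13, 0.684 and 0.561 without Tmem182, by library number, and to 0.758, 0.437 and 0.758 with it. The ratio of Fabp3 to Cpt1b FPKM was 5.12, 2.95 and 1.44 against 2.13, 0.883 and 2.25. The ratio of Etfa to Etfb FPKM was steadier, at 0.553, 0.531 and 0.609 against 0.585, 0.405 and 0.524. These pairs were chosen after the values were seen, and no test was made.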
